A study of Homo sapiens with 12 samples.

Results

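The 8 genes described here encode the kinase complex that releases paused RNA polymerase II, the proteins that hold this kinase in check, and 2 further kinases that act on the polymerase. They were chosen by gene name from the 58735 genes of the count table. They are HEXIM1 (hexamethylene bisacetamide-inducible protein 1, ENSG00000186834), CDK9 (cyclin-dependent kinase 9, ENSG00000136807), CCNT1 and CCNT2 (cyclins T1 and T2), LARP7, MEPCE, CDK7 and CDK12. All 8 passed the filter on low counts that left 17729 genes for testing.

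Polyadenylated RNA of HEK293T cells, a human embryonic kidney line, was sequenced in 4 groups of 3 libraries. One group received the solvent DMSO. A second received CEP (AHL-Pu-1), a clickable electrophilic purine that reacts with cysteines in proteins, at 25 µM for 1 h. Another received 4SU (4-thiouridine), a thio-substituted uridine that cells build into new RNA, where UV light can join it to proteins, at 100 µM for 16 h, and the last received both (CEP+4SU). The design text gives the CEP dose in µM, whereas the protocol on the labels gives 25 mM. That protocol is the same on all 12 labels, with UV crosslinking before CEP was added in serum-free medium, and does not state separately what the DMSO cells underwent. The 3 libraries of a group are described by the study as independent replicates of a single line. The p-values weigh differences between groups against the spread between replicates, which is estimated over all groups in a fit. In bulk RNA of this kind, fewer cells with a transcript and less of the transcript per cell cannot be told apart.

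After starting a gene, RNA polymerase II often stops a short way in. It is released by P-TEFb, a pair of CDK9 with cyclin T1 or T2, which phosphorylates the polymerase and the factors that hold it. Much of the P-TEFb in a cell is kept inactive in a particle built on the 7SK RNA, in which HEXIM1 inhibits the kinase, LARP7 binds and stabilizes the RNA, and MEPCE caps it. When transcription is blocked or the cell is stressed, P-TEFb leaves this particle, and HEXIM1 is a gene whose transcription is known to rise after such release. The comparisons therefore ask whether the mRNAs of this switch differed between cells given CEP, 4SU or both and cells given DMSO.

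The libraries held 16569114 to 24644734 counts on genes. CEP replicate 2 and CEP+4SU replicate 2 stood apart by the fewest genes detected (22230 and 22627, against at least 24376 in the other 10), and results that rest on them are also given without them. The 8 markers of HEK293T checked lay between 5.24 and 262 CPM (counts divided by the TMM-scaled library size in units of 1e+06), and 5 markers of blood, liver and vessel cells lay between 0 and 0.939 CPM. The summed level of the latter reached at most 0.264 CPM in the DMSO group, 0.285 CPM in the CEP group, 0.991 CPM in the 4SU group and 0.591 CPM in the CEP+4SU group.

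None of the 8 genes passed the threshold (adjusted p at most 0.05, edgeR's quasi-likelihood test with Benjamini-Hochberg adjustment over all genes tested) with CEP or with 4SU alone, and 1 of 8, CDK9, passed with CEP+4SU, where it fell. Over all genes tested, the share that passed was 0.0564% with CEP, 0.00564% with 4SU and 1.64% with CEP+4SU. Unadjusted p was under 0.05 for 3 of 8 with CEP (18.6% of all genes tested), 0 of 8 with 4SU (6.5%) and 3 of 8 with CEP+4SU (21.4%). The median log2 fold change of the 8 was 0.04, -0.05 and 0.05, beside -0.00, -0.01 and 0.00 over all genes tested. The 3 comparisons share the DMSO libraries, so their values stand side by side and are not independent.

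**Figure D1:**
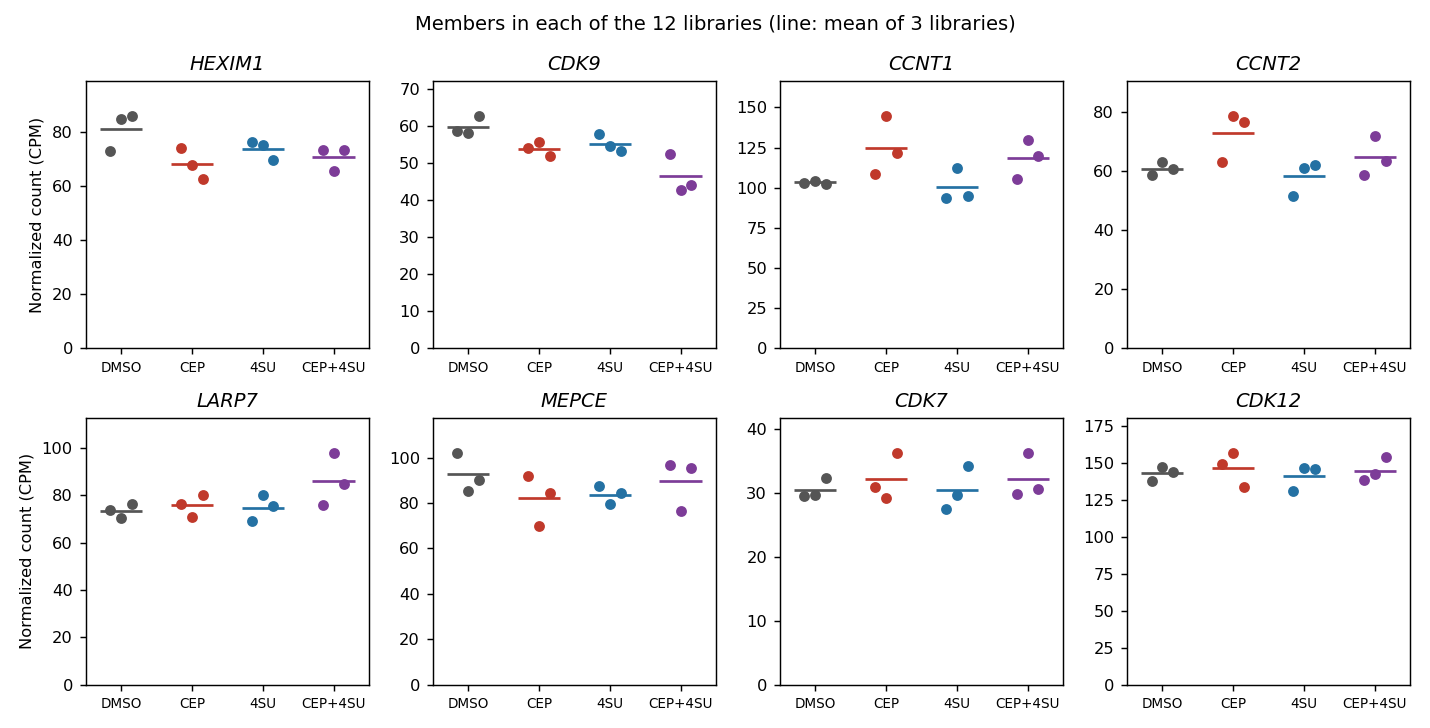
Normalized count (CPM, y axis, from 0) of each of the 8 genes in each of the 12 libraries by group (x axis), with the mean of the 3 libraries as a line. The CEP+4SU libraries of CDK9, at 42.8 to 52.4 CPM, lie below all 3 DMSO libraries, at 58.0 to 62.8 CPM, while those of HEXIM1 overlap the DMSO libraries.

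HEXIM1, the inhibitor of P-TEFb, was measured at 73.2, 84.7 and 86.1 CPM in the DMSO libraries. It stood at 74.2, 67.9 and 62.7 CPM with CEP, at 76.5, 75.1 and 69.8 CPM with 4SU, and at 73.4, 65.5 and 73.3 CPM with both. The treated libraries lay lower than the 2 higher DMSO libraries, but in each treated group at least 1 of them reached the lowest DMSO library, so every group overlapped DMSO. The log2 fold change was -0.25 (SE 0.091, adjusted p = 0.191) with CEP, -0.14 (SE 0.090, adjusted p = 0.806) with 4SU and -0.20 (SE 0.090, adjusted p = 0.207) with both, all from edgeR's quasi-likelihood test. The 95% confidence intervals ran from -0.44 to -0.06 with CEP, from -0.33 to 0.05 with 4SU and from -0.39 to -0.01 with both. No rise of HEXIM1 was therefore seen in any of the 3 comparisons, and the highest value inside any of the intervals was 0.05. Without the CEP and CEP+4SU replicates 2, the values were -0.25 (adjusted p = 0.202) with CEP and -0.15 (adjusted p = 0.464) with both. HEXIM1 is a gene of 1 exon on chromosome 17 (45148502 to 45152101, plus strand, GRCh38), and 14.4% of that exon overlaps exons of an antisense gene on the other strand. The sources used here do not say whether read strand entered the counting, so reads in this overlap cannot be assigned to either gene with certainty.

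CDK9, the kinase of P-TEFb, gave 58.7, 58.0 and 62.8 CPM with DMSO and 52.4, 42.8 and 44.1 CPM with CEP+4SU. It gave 54.1, 55.8 and 51.8 CPM with CEP alone and 57.9, 54.8 and 53.2 CPM with 4SU alone. All libraries of each treated group lay below all DMSO libraries. The highest library was at 52.4 CPM with CEP+4SU, 55.8 CPM with CEP and 57.9 CPM with 4SU, against 58.0 CPM for the lowest DMSO library. The shares of all genes tested whose libraries did not overlap were 23.7% with CEP, 17.9% with 4SU and 28.7% with both. CDK9 fell by 0.37 on the log2 scale with CEP+4SU (SE 0.091, 95% interval -0.56 to -0.18, adjusted p = 0.0484, edgeR's quasi-likelihood test), and 0.993% of all genes tested passed in this direction. The log2 fold change was -0.15 (95% interval -0.34 to 0.04, adjusted p = 0.364) with CEP and -0.12 (95% interval -0.30 to 0.07, adjusted p = 0.846) with 4SU, by the same test. The test of the difference between the effect of CEP in the presence and in the absence of 4SU gave -0.10 (95% interval -0.37 to 0.17, adjusted p = 1.00), so the effect of CEP on CDK9 was not shown to depend on 4SU. CDK9 lies on chromosome 9 (127785679 to 127790787, plus strand) and shares 5.83% of its exonic bases with 2 microRNA genes on the same strand.

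The call of CDK9 lay close to the threshold. It held under 9 of 20 other ways of processing, DESeq2 among them (10.6% of the genes to which it gave an adjusted p passed there), with adjusted p from 0.00651 to 0.21, and the fold change was negative in all 20, from -0.47 to -0.26. Leaving out any of the 3 DMSO libraries ended the call (adjusted p = 0.137 to 0.171), as did leaving out CEP+4SU replicate 2 (log2 fold change -0.31, adjusted p = 0.21), CEP+4SU replicate 3 (-0.34, adjusted p = 0.117), or the CEP and CEP+4SU replicates 2 together (-0.31, adjusted p = 0.0993). Without CEP+4SU replicate 1, the highest library of its group, the value was -0.47 (adjusted p = 0.0197).

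**Figure D2:**
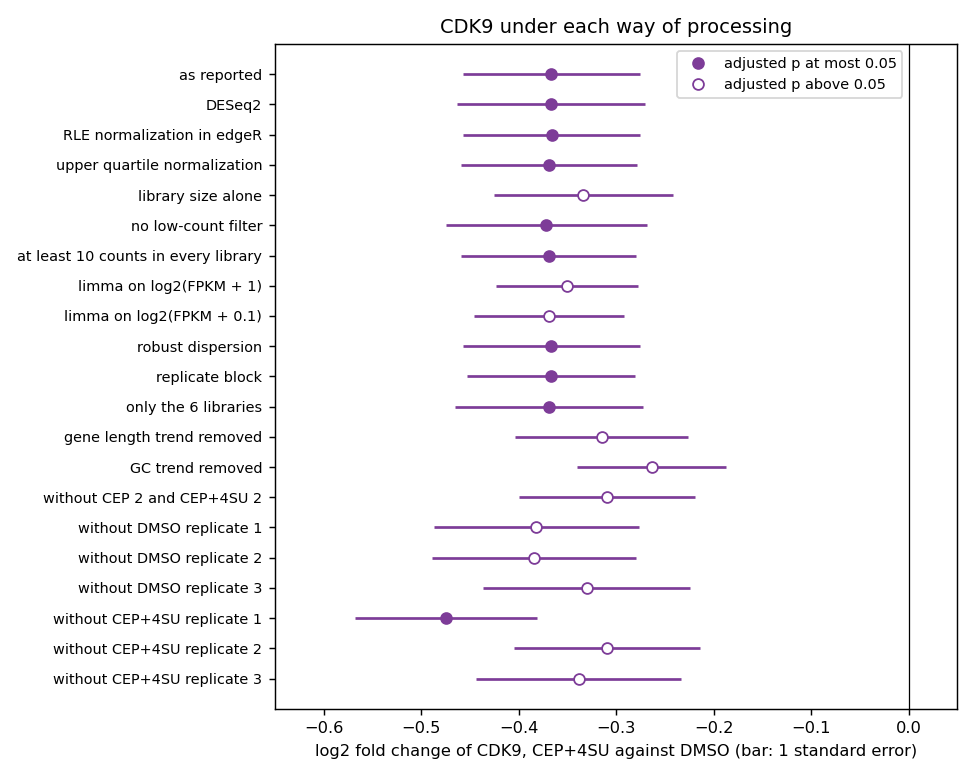
Log2 fold change of CDK9 with CEP+4SU against DMSO (x axis, bars of 1 standard error) under each way of processing and without each library (y axis), with filled points where adjusted p was at most 0.05. Every point lies below 0, between -0.47 and -0.26, and 9 of the 20 alternatives are filled.

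The cyclins of P-TEFb showed higher means with CEP, without passing the threshold. CCNT1 was very even in the DMSO libraries, at 103, 104 and 103 CPM, and reached 108, 145 and 121 CPM with CEP and 105, 130 and 120 CPM with CEP+4SU. All 6 CEP-treated libraries thus exceeded all 3 DMSO libraries, and in both groups replicate 2 was the highest. Of all genes tested, 23.7% with CEP and 28.7% with CEP+4SU likewise did not overlap DMSO. With 4SU alone, CCNT1 gave 93.8, 112 and 94.9 CPM, on both sides of the DMSO libraries. Its log2 fold change was 0.27 (SE 0.10, adjusted p = 0.199) with CEP, -0.04 (adjusted p = 0.956) with 4SU and 0.20 (SE 0.10, adjusted p = 0.281) with both. Without the CEP and CEP+4SU replicates 2 it was 0.16 (adjusted p = 0.376) with CEP and 0.13 (adjusted p = 0.527) with both, smaller by more than 1.5 times in each case. Without CEP replicate 1, its lowest CEP library, CCNT1 passed with CEP at 0.38 (adjusted p = 0.0382), in a fit where 6.61% of all genes tested passed.

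CCNT2, the other cyclin that can pair with CDK9, followed with 58.8, 63.0 and 60.6 CPM in DMSO and 63.1, 78.7 and 76.7 CPM with CEP. The lowest CEP library was only just above the highest DMSO library, and 23.7% of all genes tested did not overlap in this comparison. It gave 51.7, 61.2 and 62.1 CPM with 4SU and 58.8, 71.9 and 63.3 CPM with CEP+4SU, and both of these groups overlapped DMSO. Against DMSO, the log2 fold change of CCNT2 was 0.26 (SE 0.10, adjusted p = 0.203) with CEP, -0.06 (adjusted p = 0.934) with 4SU and 0.09 (adjusted p = 0.649) with both. Without the CEP and CEP+4SU replicates 2 it was 0.21 (adjusted p = 0.3) with CEP and 0.01 (adjusted p = 0.978) with both. Without CEP replicate 1, CCNT2 passed with CEP at 0.37 (adjusted p = 0.0413), in a fit where 6.61% of all genes tested passed. Of the exonic bases of CCNT2, 1.63% overlap those of CCNT2-AS1, a gene on the other strand.

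LARP7, which binds the 7SK RNA, gave 73.6, 70.5 and 76.1 CPM with DMSO and 75.7, 98.01 and 84.8 CPM with CEP+4SU. CEP+4SU replicate 2 was the highest of all 12 libraries, and the lowest library of that group overlapped DMSO. The log2 fold change with both compounds was 0.23 (SE 0.095, 95% interval 0.03 to 0.43, adjusted p = 0.170), and 0.13 (adjusted p = 0.49) without the replicates 2. With CEP alone (76.4, 70.9 and 80.04 CPM) and 4SU alone (69.0, 80.1 and 75.4 CPM) it was 0.05 and 0.03. LARP7 shares 8.18% of its exonic bases with genes on the other strand, most of it with an antisense gene and the rest with ZGRF1.

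MEPCE, the enzyme that caps the 7SK RNA, varied most between DMSO libraries in absolute terms, at 102, 85.4 and 90.3 CPM. It gave 92.0, 70.0 and 84.5 CPM with CEP, 87.3, 79.4 and 84.3 CPM with 4SU and 96.5, 76.4 and 95.4 CPM with both. The replicates 2 with CEP and with CEP+4SU were the lowest of the 12 libraries, and all 3 groups overlapped DMSO. MEPCE had log2 fold changes of -0.17 (adjusted p = 0.385), -0.15 (adjusted p = 0.833) and -0.05 (adjusted p = 0.826) with CEP, 4SU and both. Without the replicates 2, its value was -0.07 (adjusted p = 0.724) with CEP and 0.05 (adjusted p = 0.82) with both. An overlap with ZCWPW1 on the other strand takes 5.94% of the exonic bases of MEPCE. The 7SK RNA itself (RN7SK) was listed at 0 counts in all 12 libraries, which allows up to 0.124 to 0.177 CPM depending on the library. The libraries were made from RNA with a poly(A) tail, which 7SK lacks, so the particle's RNA was not measured.

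The other kinases, CDK7 and CDK12, did not pass in any comparison. CDK7, which phosphorylates the polymerase at the start of transcription within TFIIH and activates other cyclin-dependent kinases, was the lowest of the 8 by CPM, at 29.4, 29.7 and 32.3 CPM with DMSO. It gave 31.0, 29.2 and 36.3 CPM with CEP, 27.5, 29.6 and 34.3 CPM with 4SU and 29.8, 36.2 and 30.6 CPM with both. Every treated group overlapped DMSO, and the log2 fold changes were 0.08, -0.00 and 0.08, with 95% intervals within -0.24 to 0.32. CDK12, which pairs with cyclin K and phosphorylates the elongating polymerase, was the highest by CPM, at 137, 147 and 144 CPM with DMSO. It gave 150, 157 and 134 CPM with CEP, 131, 146 and 146 CPM with 4SU and 138, 142 and 154 CPM with both. These groups overlapped as well, with log2 fold changes of 0.04, -0.02 and 0.02 and 95% intervals within -0.19 to 0.20.

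**Figure D3:**
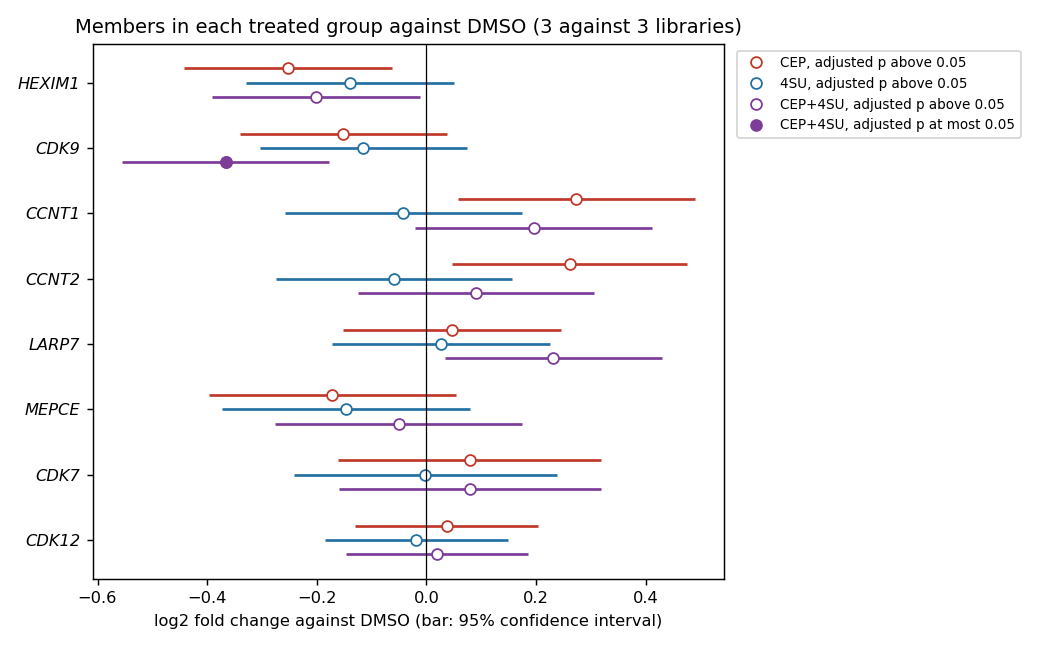
Log2 fold change against DMSO (x axis, bars are 95% confidence intervals) of each of the 8 genes (y axis) with CEP, 4SU and CEP+4SU, 3 libraries against 3. Only CDK9 with CEP+4SU, at -0.37, is drawn filled (adjusted p at most 0.05), and all intervals with 4SU alone include 0.

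When CEP was averaged over 4SU, so that 6 libraries with CEP were set against 6 without, 0 of 8 passed (0.276% of all genes tested), and 4 of 8 had an unadjusted p under 0.05 (24.3%). CCNT1 was at 0.26 (SE 0.073, adjusted p = 0.0757), CDK9 at -0.20 (SE 0.064, adjusted p = 0.0881), CCNT2 at 0.21 (SE 0.073, adjusted p = 0.105) and HEXIM1 at -0.16 (SE 0.064, adjusted p = 0.147). The kinase and its cyclins thus lay on opposite sides of 0. With each library's trend on GC content removed, as described below, this contrast shrank. In that fit CCNT1 stood at 0.16 (adjusted p = 0.205, edgeR's quasi-likelihood test), CDK9 at -0.09 (0.512), CCNT2 at 0.07 (0.588) and HEXIM1 at -0.13 (0.309). MEPCE went from -0.04 to 0.18 (adjusted p = 0.13), and 0.434% of all genes tested passed there. With DESeq2, CCNT1 and CDK9 passed in this comparison, as did 15.6% of the genes to which it gave an adjusted p. When 4SU was averaged over CEP, 0 of 8 passed (0.558%), and CDK9, at -0.16 (SE 0.064, adjusted p = 0.277), was the only one with an unadjusted p under 0.05 (12.6%). The interaction of CEP with 4SU passed for 0 of 8 and for 0% of all genes tested, and had an unadjusted p under 0.05 for 0 of 8 (2.63%). Its largest value was that of MEPCE, 0.27 (95% interval -0.05 to 0.59).

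Levels were compared between genes on the authors' FPKM scale, which divides by gene length. In the DMSO libraries MEPCE was the highest at 26.9 ± 2.5 FPKM (SD, n = 3), followed by HEXIM1 at 22.4 ± 1.9, CDK9 at 19.8 ± 0.78, LARP7 at 17.8 ± 0.63, CCNT1 at 13.9 ± 0.14, CDK7 at 12.5 ± 0.62, CDK12 at 11.1 ± 0.38 and CCNT2 at 6.64 ± 0.23 FPKM. HEXIM1 and CDK9 overlapped between libraries, and the other neighbours in this order did not. The order was the same by CPM per kilobase. Over the 12 libraries, the mean FPKM of CCNT2 lay at the 63.6th percentile and that of MEPCE at the 88.6th percentile of all genes tested, with the other 6 between them. With CEP+4SU the order by FPKM was MEPCE (25.9), LARP7 (20.9), HEXIM1 (19.5), CCNT1 (15.9), CDK9 (15.3), CDK7 (13.2), CDK12 (11.2) and CCNT2 (7.06). CDK9 thus ranked 3 of 8 with DMSO and 5 of 8 with CEP+4SU, where its libraries overlapped those of CCNT1 and CDK7.

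**Figure D4:**
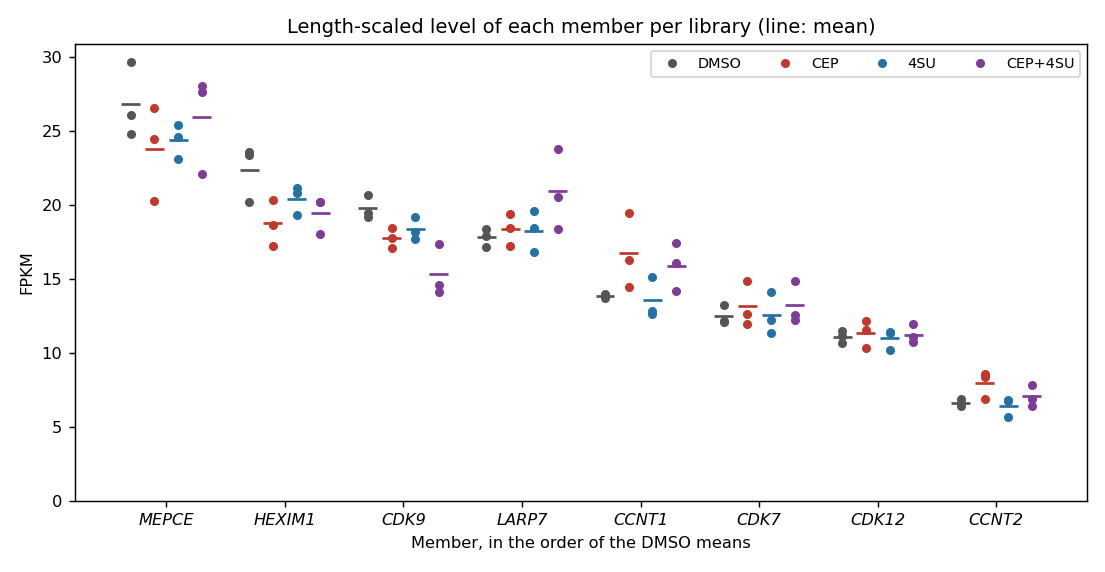
FPKM (y axis, from 0) of each gene (x axis, in the order of the DMSO means) in each library by group, with the mean as a short line. CCNT2 is the lowest throughout, at 5.67 to 8.59 FPKM. By mean, CDK9 ranks 3 and LARP7 ranks 4 with DMSO, and LARP7 ranks 2 and CDK9 ranks 5 with CEP+4SU.

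The fold changes of all genes moved with the GC content of their transcripts. Of the genes tested, 99.9% could be given a GC content, that of their longest GENCODE 29 transcript, and the median was 48.5%. All genes were put in 10 bins of equal size by GC content. In the bin with the least GC (median 36.9%), the median log2 fold change was 0.21 with CEP and 0.21 with CEP+4SU. In the bin with the most (median 64.2%), it was -0.31 and -0.30. With 4SU alone the same bins stood at 0.07 and -0.12. The 8 genes cover most of this range, with CCNT2 at 37.0%, LARP7 at 38.1%, CDK7 at 40.7%, CCNT1 at 40.8%, CDK12 at 44.2%, HEXIM1 at 48.2%, CDK9 at 55.1% and MEPCE at 61.7%. Values with each library's trend on GC content removed are therefore given beside the others. The removal also takes out any effect of treatment that follows GC content, so what GC content itself contributed was not tested.

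The contrast in base composition can be seen in the coding sequence, though less for LARP7 than for CCNT2. The lines below give the middle 120 bases of the longest coding exon in the transcript with the longest coding sequence, 5′ to 3′ on the plus strand of GRCh38, for the 2 genes with the least and the 2 with the most GC. The capitals mark G and C. The LARP7 stretch, at 46.7% G or C, is richer than its longest transcript (38.1%) and near the median of all genes tested (48.5%).
CCNT2 (exon 9 of 9, chr2:134953878-134953997, 45 of 120 bases G or C): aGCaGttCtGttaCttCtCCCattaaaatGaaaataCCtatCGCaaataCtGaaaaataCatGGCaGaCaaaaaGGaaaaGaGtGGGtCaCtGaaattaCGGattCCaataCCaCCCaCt
LARP7 (exon 9 of 15, chr4:112647314-112647433, 56 of 120): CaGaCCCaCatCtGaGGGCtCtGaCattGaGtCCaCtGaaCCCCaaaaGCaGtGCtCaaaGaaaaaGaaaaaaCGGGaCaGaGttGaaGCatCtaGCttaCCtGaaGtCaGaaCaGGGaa
CDK9 (exon 7 of 7, chr9:127789299-127789418, 77 of 120): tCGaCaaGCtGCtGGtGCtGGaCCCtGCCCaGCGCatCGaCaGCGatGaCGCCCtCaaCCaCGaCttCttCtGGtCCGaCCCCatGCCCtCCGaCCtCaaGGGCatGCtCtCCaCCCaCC
MEPCE (exon 1 of 4, chr7:100430794-100430913, 84 of 120): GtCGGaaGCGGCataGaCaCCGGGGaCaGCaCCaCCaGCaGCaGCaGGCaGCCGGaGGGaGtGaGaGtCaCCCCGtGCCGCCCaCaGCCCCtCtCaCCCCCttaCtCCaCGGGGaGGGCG

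With the GC trend removed, CDK9 with CEP+4SU stood at -0.26 (SE 0.076, adjusted p = 0.0923, edgeR's quasi-likelihood test), so its call was lost while its direction was not (1.05% of all genes tested passed in this fit). Its value with CEP alone went from -0.15 to -0.01. The cyclins went from 0.27 to 0.15 (CCNT1) and from 0.26 to 0.08 (CCNT2) with CEP, and LARP7 with CEP+4SU from 0.23 to 0.05. MEPCE, the gene richest in GC, went from -0.17 to 0.09 with CEP, a change of direction with adjusted p = 0.713. HEXIM1, close to the median GC content, hardly moved, from -0.25 to -0.23 (adjusted p = 0.392) with CEP and from -0.20 to -0.21 (adjusted p = 0.218) with CEP+4SU. When 4SU was averaged over CEP, CCNT2 passed after this correction, at -0.17 (adjusted p = 0.0392) against -0.12 (adjusted p = 0.548) before it, and 5.11% of all genes tested passed in that fit.

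**Figure D5:**
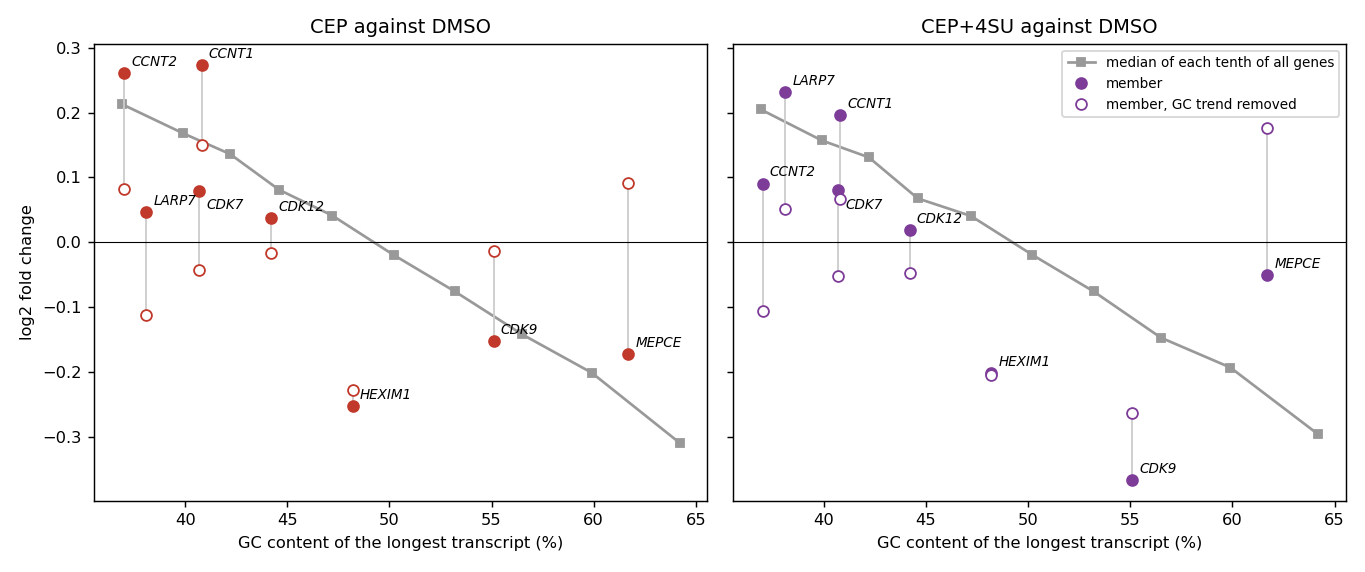
Log2 fold change (y axis) against the GC content of the longest transcript (x axis, %) of the 8 genes with CEP and with CEP+4SU, before (filled) and after (open) removal of the GC trend, with the medians of 10 bins of all genes by GC content in grey. The grey medians fall from 0.21 to -0.31 with CEP and from 0.21 to -0.30 with CEP+4SU, and some of the 8 genes lie above them and some below, HEXIM1 below them in both panels.

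The genes around this switch were followed in 8 lists of 78 genes, of which 75 passed the filter on low counts. RN7SK, SUPT4H1 and GTF2H4 did not pass it, with at most 0.498 CPM in any library. With CEP, 0 of 75 passed the threshold, with 4SU 0 of 75, and with CEP+4SU 2 of 75, beside the shares of all genes tested given above. Unadjusted p was under 0.05 for 19, 2 and 19 of the 75, beside 18.6%, 6.5% and 21.4% of all genes tested. The median log2 fold change of the 75 was 0.02, -0.03 and 0.05.

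Of the 4 short-lived mRNAs listed because they are known to fall when CDK9 is inhibited, MYC, which encodes a growth-promoting transcription factor, fell with CEP+4SU. It gave 253, 262 and 274 CPM with DMSO and 223, 184 and 192 CPM with CEP+4SU, with no overlap. This held for 28.7% of all genes tested. The log2 fold change of MYC was -0.40 (SE 0.083, adjusted p = 0.0290) with CEP+4SU. For CEP averaged over 4SU it was -0.33 (SE 0.059, adjusted p = 0.0156), and there MYC was the only gene of the lists to pass. The other 3 did not pass with CEP+4SU and did not share 1 direction. MCL1, which encodes a survival factor, was at 0.16 (adjusted p = 0.216), and the early response genes JUNB and IER2 were at -0.60 (adjusted p = 0.0731) and 0.05. MYC held under 13 of 20 alternatives with CEP+4SU, with adjusted p from 0.00039 to 0.134, and with the GC trend removed it stood at -0.31 (adjusted p = 0.0130). After the same correction JUNB went from -0.60 to -0.32 (adjusted p = 0.295), IER2 from 0.05 to 0.27 (adjusted p = 0.28) and MCL1 from 0.16 to 0.10 (adjusted p = 0.439).

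Of the 4 DNA repair genes known to depend on CDK12, BRCA1, which acts in homologous recombination, was higher with CEP+4SU, at 160, 186 and 176 CPM against 133, 133 and 142 CPM with DMSO. Against DMSO this was a log2 fold change of 0.36 (SE 0.080, adjusted p = 0.0356), and it held under 13 of 20 alternatives, with adjusted p from 0.00198 to 0.168. ATR, FANCI and FANCD2 did not pass, and the median of the 4 was 0.10. With CEP+4SU, the calls of both MYC and BRCA1 ended on leaving out any 1 DMSO library, or CEP+4SU replicate 2 or 3, while their log2 fold changes stayed between -0.43 and -0.34 for MYC and between 0.31 and 0.39 for BRCA1. Both calls held without the CEP and CEP+4SU replicates 2 together, at -0.34 (adjusted p = 0.0379) for MYC and 0.31 (adjusted p = 0.0395) for BRCA1. With the GC trend removed, BRCA1 stood at 0.25 (adjusted p = 0.0458). The call of MYC for CEP averaged over 4SU held without DMSO replicate 1 (adjusted p = 0.0352), CEP+4SU replicate 2 (adjusted p = 0.0206) or both replicates 2 (adjusted p = 0.0119), and ended without DMSO replicate 2 (adjusted p = 0.053) or 3 (adjusted p = 0.0633), CEP replicate 3 (adjusted p = 0.0527), 4SU replicate 1 (adjusted p = 0.0555) or 3 (adjusted p = 0.0503), or CEP+4SU replicate 3 (adjusted p = 0.0514).

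In the other 6 lists no gene passed with CEP+4SU. The gene with the smallest p in each was AFF4 of the super elongation complex (0.30, adjusted p = 0.0909), the cyclin CCNL2 (-0.20, adjusted p = 0.104), SUPT5H, the large subunit of the pausing factor DSIF (-0.23, adjusted p = 0.114), the helicase ERCC2 of TFIIH (-0.28, adjusted p = 0.109), the polymerase subunit POLR2K (0.27, adjusted p = 0.119) and RPAP2, a phosphatase of the polymerase (0.40, adjusted p = 0.0636). These are log2 fold changes from edgeR's quasi-likelihood test, 3 of them above and 3 below 0. With the GC trend removed, POLR2K went to 0.04, ERCC2 to -0.09, SUPT5H to -0.07, AFF4 to 0.17, RPAP2 to 0.28 and CCNL2 to -0.17, and none of the 6 passed. Of the 16 tested partners of P-TEFb and the 7SK particle, 3 had an unadjusted p under 0.05, of the 11 partners of the other kinases 2, of the 16 pausing and elongation factors 3, of the 6 TFIIH subunits 1, of the 12 polymerase subunits 3 and of the 6 phosphatases 3. The share over all genes tested was 21.4%, above that of 4 of these 6 lists. HEXIM2, the paralog that can take the place of HEXIM1, was low, between 0.939 and 2.53 CPM over the 12 libraries.

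The 5 protein-coding genes of at least 1 CPM whose log2 CPM over the 12 libraries was most like that of HEXIM1, by Pearson's r among 12894 genes, were RAI1 (0.94), MEGF6 (0.94), MAMDC4 (0.94), PPP1R9B (0.94) and PPP1R16A (0.93). By Spearman's rho, which was 0.81 to 0.90 for these 5, other genes stood first, and RAI1 ranked 158, MAMDC4 114.5, PPP1R9B 93.5, PPP1R16A 15.5 and MEGF6 7, so the 5 depend on the measure. Their transcripts are rich in GC, at 64.0% to 67.8%, against 48.2% for HEXIM1. Among the other members, r with HEXIM1 was 0.60 for CDK9, 0.36 for MEPCE, 0.11 for CDK12, -0.45 for LARP7, -0.53 for CDK7, -0.56 for CCNT1 and -0.64 for CCNT2. The members richest in GC stood at the upper end of this order and those poorest in GC at the lower. These values describe 12 libraries that share depth and treatment groups and are not a test.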

How the data were processed

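HEK293T libraries were assigned to 4 groups of 3 by the treatment on the labels. The gene counts were deposited by the authors as whole numbers without normalization, made with HISAT2 2.0.5 and featureCounts 1.5.0-p3 (submitters' processing notes) on GRCh38 after read filtering. The authors also deposited FPKM values, which divide by gene length. Their FPKM means per group were not used. All 58735 identifiers are in GENCODE 29.

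The members and gene lists were chosen with earlier results of these data known. Genes passed edgeR's filterByExpr (minimum count 10, minimum total 15), were scaled with TMM, and all 12 libraries were fitted in 1 quasi-likelihood model (edgeR 4.0.16, R 4.3.3) with Benjamini-Hochberg adjustment over the 17729 genes at 0.05. Intervals (95%) are those of the moderated fit. The scripts were tested on simulated counts. Named genes were the 8 members, list genes past the threshold, the gene with the smallest p of each list with CEP+4SU, and the 5 genes most like HEXIM1. MCL1, JUNB, IER2, HEXIM2 and the repair genes that did not pass were named after their values were seen.

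Alternatives were DESeq2 1.42.0, RLE, upper-quartile or no composition scaling, 2 other count filters (none, or 10 counts in each library), limma 3.58.1 on log2(FPKM + 1) or log2(FPKM + 0.1), robust dispersion, a replicate block, fits of 6 libraries alone, trends on GC content or gene length taken out by splines with 4 degrees of freedom, and each library left out. Isoforms, nascent transcripts and phosphorylation were not analysed here.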

Additional observations from a re-analysis of the deposited data

How the results depend on the processing

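HEXIM1 passed the threshold under none of the alternatives run in any comparison, and its value with CEP stayed between -0.33 and -0.19. Over 1072 values of single members under alternatives, 14 newly passed and 11 no longer passed. The sign changed in 117, and in 1 of these both estimates exceeded their standard error (MEPCE with CEP, 0.092 with the GC trend removed). With CEP+4SU, 0 of 8 members passed with library size alone, limma with either pseudocount, the length or GC trend removed, or without both replicates 2, as against 1. Leaving out 1 library gave 0 to 2 members with CEP, 0 to 1 with CEP+4SU and 0 to 2 with CEP averaged over 4SU. For the averaged comparison, CEP replicate 1 (CCNT1, adjusted p = 0.0157, and CCNT2, adjusted p = 0.0259) and CEP+4SU replicate 1 made the difference. Over all genes tested, 11.8% and 6.16% passed in that comparison without the one and the other. Without CEP replicate 1, 6.61% passed with CEP, and without CEP+4SU replicate 1, 4.42% passed with CEP+4SU. CEP averaged over 4SU gave 2 members with DESeq2 and 1 without the filter, and 4SU averaged over CEP gave 1 with the GC trend removed (CCNT2).

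Of the 75 list genes, CEP gave 1 with DESeq2 and 3 without the filter, as against 0. CEP+4SU gave 7 and 8, and 0 with limma at either pseudocount, as against 2. CEP averaged over 4SU gave 13 and 12, 0 with limma at either pseudocount and 2 with the length trend removed, as against 1. 4SU averaged over CEP gave 1 with DESeq2 and 3 with the GC trend removed, as against 0. Leaving out 1 library gave 0 to 9 with CEP, 0 to 5 with CEP+4SU and 0 to 18 with CEP averaged over 4SU. The 9 and the 18 came without CEP replicate 1, where 6.61% and 11.8% of all genes tested passed. The 5 came without CEP+4SU replicate 1, where 4.42% passed. The cause of these shifts was not tested.

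Over all genes tested, CEP+4SU passed for 290 genes, for 1164 with DESeq2, 21 with limma on log2(FPKM + 1), 1234 without the filter, 14 to 21 without 1 DMSO library, and 812, 32 and 17 without CEP+4SU replicate 1, 2 and 3. CEP passed for 10, 253 with DESeq2, 662 without the filter and 1214 without CEP replicate 1, and CEP averaged over 4SU for 49, 1499 with DESeq2, 1448 without the filter and 2171 without CEP replicate 1. The shares without the filter were 1.86% with CEP, 3.46% with CEP+4SU and 4.06% with CEP averaged over 4SU, and those with DESeq2 were 2.63%, 10.6% and 15.6%. Scaling moved the split of higher and lower calls with CEP+4SU from 114 and 176 to 209 and 137 with library size alone, that of CEP averaged over 4SU from 18 and 31 to 12 and 61 with upper quartiles, and that of 4SU averaged over CEP from 31 and 68 to 45 and 26 with library size alone.

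Libraries with the same replicate number deviated together weakly at most. The correlation of their deviations from the group means ran from -0.05 to 0.14 over 18 pairs and exceeded 0.1 in 1, and 7 of 12 libraries correlated best with their own number, so the numbers were not taken to pair the samples. With the replicate number as a block, 1 member passed with CEP (CCNT1, adjusted p = 0.0498) and 3 with CEP averaged over 4SU, and list genes numbered 3 with CEP, 9 with CEP+4SU, 18 with CEP averaged over 4SU and 1 with 4SU averaged over CEP. Over all genes tested, 814 (4.42%), 1650 (8.96%), 2268 (12.3%) and 320 (1.74%) passed under the block in these comparisons.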

Other observations

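The balance between members of a complex was described as the log2 ratio of their counts within each library, which does not depend on library size. HEXIM1 to CDK9, the inhibitor against the kinase it holds, was 0.44 ± 0.12 (SD, n = 3) with DMSO, 0.34 ± 0.10 with CEP, 0.42 ± 0.03 with 4SU and 0.61 ± 0.12 with CEP+4SU. In CEP+4SU the libraries stood at 0.48, 0.61 and 0.73, against 0.32, 0.55 and 0.45 with DMSO, so the groups overlapped although the mean was the highest of the 4. CCNT1 to CCNT2, the 2 cyclins that compete for CDK9, was 0.76 ± 0.04, 0.77 ± 0.11, 0.78 ± 0.15 and 0.87 ± 0.04 in the same order of groups. CDK12 to CDK7 was 2.23 ± 0.08, 2.19 ± 0.28, 2.22 ± 0.11 and 2.17 ± 0.18, with differences between the means smaller than the spread within the groups. These ratios were not tested.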
